A study of Mus musculus with 4 samples.

Results

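The chemokine ligand and receptor genes of the mouse were examined on 4 single-colour arrays of p53-null neural stem cells. A gene was taken when the array's gene name began with Ccl, Ccr, Cxcl or Cxcr and a number, or was Cx3cl1 or Cx3cr1, and each gene was read by 1 probe, the one with the highest mean log2 signal over the 4 arrays. This gave 53 genes (34 ligands and 19 receptors, measured by 69 probes) of 22340 genes with a named probe. The rule used names and the mean signal over all arrays, not any difference between arrays.

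Chemokines are small secreted proteins that bind G-protein-coupled receptors and direct the movement of cells along their gradients. CC and CXC chemokines are named for the spacing of their first cysteines, and fractalkine, Cx3cl1, is a membrane-anchored relative. In the brain, Cxcl12 acting on Cxcr4 guides neural progenitors, Cx3cl1 on neurons signals to Cx3cr1 on microglia, and Ccl2 made by glia recruits monocytes during inflammation.

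NSC-Ceacam1L were p53-/- neural stem cells transfected to express the long form of Ceacam1, an adhesion molecule of the immunoglobulin family, and NSC were such cells without it. NSCL61-Ceacam1sh were cells of the NSCL61 line with a short hairpin RNA against Ceacam1, and NSCL61 were cells of that line without it. NSCL61 is known as a glioma-initiating line derived from p53-null neural stem cells, and by their labels both of its arrays rest on this single line. All 4 groups shared the p53-/- genotype, an origin in brain at E14.5, and growth in medium without serum. Transfected cells had been kept in hygromycin for 1 week. Whether NSC and NSCL61 carried an empty vector is not stated in the labels. The level of Ceacam1 itself was not analysed here, so groups are named as the arrays were labelled.

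Each group had 1 array, so no difference given here has a replicate check and no p-value is given. Values are log2 signals relative to the 75th percentile of the array, called levels, and a value after ± is the error that the scanner software models for a spot, with biological variation left out. The 4 arrays shared 1 slide and each group took its own position there, so the effects of position and of group cannot be told apart. In RNA from whole cultures, fewer cells that make a transcript and less RNA per cell cannot be told apart either. The array labelled NSCL61-Ceacam1sh stood apart across 12477 genes, which are not independent replicates. Its levels correlated at 0.840 with NSC-Ceacam1L, 0.861 with NSC and 0.846 with NSCL61. The other 3 arrays correlated at 0.933 to 0.973 among themselves. Of all genes well above background on NSCL61-Ceacam1sh or NSCL61, 23.5% were past 2-fold higher on NSCL61-Ceacam1sh and 24.2% lower. In that comparison 4 of 4 astrocyte markers were past 2-fold lower. Their summed signals, as multiples of the 75th percentile, were 1.5 on NSCL61-Ceacam1sh and 681 on NSCL61. Likewise 3 of 4 oligodendrocyte lineage markers were past 2-fold lower (2.25 on NSCL61-Ceacam1sh, 117 on NSCL61), while 5 of 6 fibroblast and mesenchyme markers seen were higher and 1, Thy1, was lower (21.7 on NSCL61-Ceacam1sh, 0.39 on NSCL61). Xist, the RNA that silences an X chromosome in female cells, stood at -4.05 on NSCL61-Ceacam1sh and 0.42 on NSCL61. Of 6 neural stem cell markers, 1 was higher and 3 lower (37.5 on NSCL61-Ceacam1sh, 418 on NSCL61), with Sox2 and Nes well above background on all 4 arrays. On NSC-Ceacam1L, 2 of 4 astrocyte and 2 of 4 fibroblast markers were higher than on NSC and none lower, against 10.5% and 6.04% of all genes. The astrocyte sums were 485 on NSC-Ceacam1L and 279 on NSC, and the fibroblast sums 13.6 on NSC-Ceacam1L and 2.33 on NSC. The fibroblast sums there were mostly Thy1 (level 3.71 on NSC-Ceacam1L and 1.00 on NSC), and Col1a1 differed by -0.72. These facts stand beside every value below from the arrays concerned, and their part in the chemokine differences was not tested.

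A gene was called seen on an array when its probe was well above background by the scanner software. Of the 53 genes, 27 were seen on at least 1 array (19 ligands and 8 receptors), against 74.3% of all genes. On all 4 arrays, 13 of the 53 were seen, against 12477 of all 22340 genes. By array, 16 of the 53 were seen on NSC-Ceacam1L, 16 on NSC, 21 on NSCL61-Ceacam1sh and 18 on NSCL61. Of all 55681 probes, 29552, 27439, 27421 and 29336 were well above background on these arrays, in the same order. The 26 genes seen on no array had levels of -7.16 to -4.29. They included the ligands Ccl3, Ccl4, Ccl11, Ccl12, Ccl20, Ccl24, Ccl26, Cxcl1, Cxcl2, Cxcl3, Cxcl5, Cxcl9, Cxcl13, Cxcl15 and Cxcl17 and the receptors Ccr1, Ccr1l1, Ccr2, Ccr3, Ccr4, Ccr6, Ccr7, Ccr9, Ccr10 and Cxcr2. The plot of levels by gene and array shows the 27 seen genes.

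**Figure D1:**
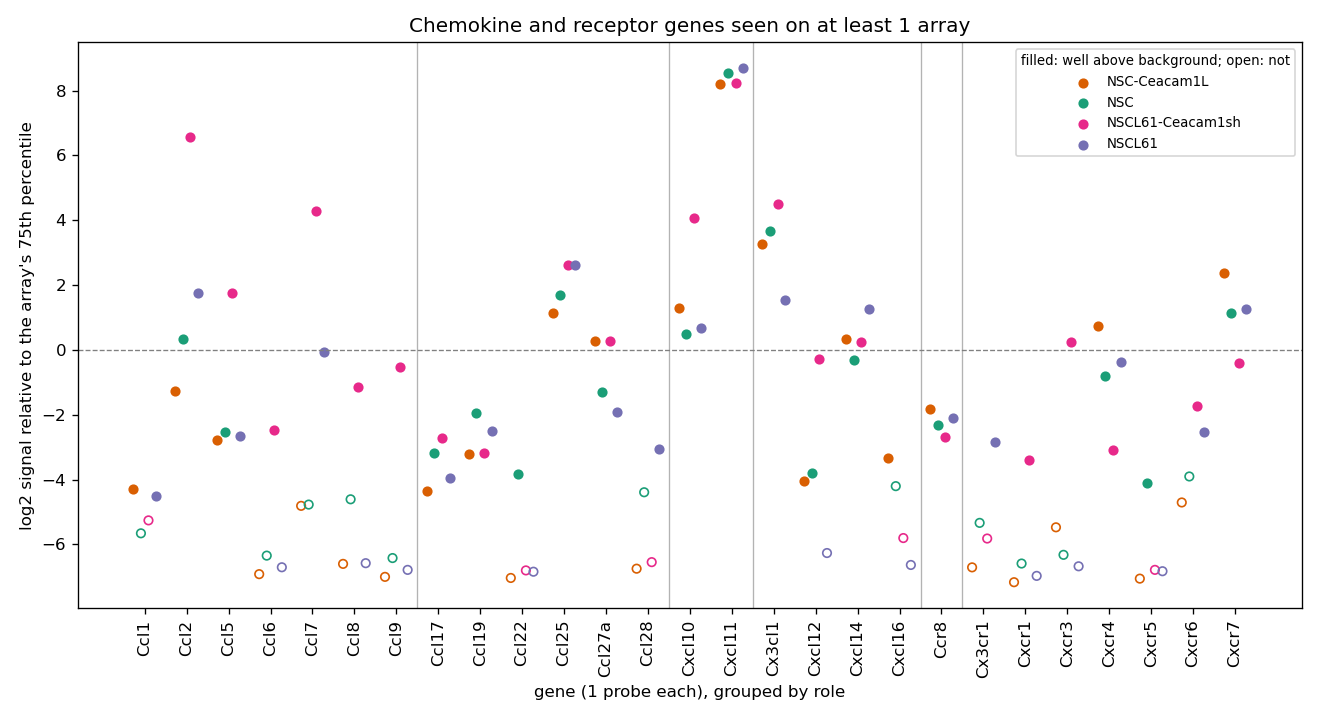
Level of each chemokine and receptor gene seen on at least 1 array (log2 signal relative to the array's 75th percentile, 1 probe per gene), with 1 point per array and genes grouped by role between vertical lines. Filled points were well above background and open points were not; Ccl2, Ccl7 and Ccl5 stand highest on NSCL61-Ceacam1sh, and Ccl6, Ccl8, Ccl9, Cxcr1 and Cxcr3 are filled on that array alone.

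A difference of 2-fold or more counted as higher or lower where the gene was seen on the brighter array, and genes seen on either array were evaluated. Between NSC-Ceacam1L and NSC, 18 of the genes were evaluated, 4 were higher and 5 lower, against 10.5% higher and 6.04% lower of all genes evaluated. Their median difference was -0.25 and that of all genes -0.10. The sign of the set's median turned with cyclic loess (0.0683) and spike-in scaling (0.17), and spike-in scaling gave 7 higher and 3 lower. Between NSCL61-Ceacam1sh and NSCL61, 24 were evaluated, 13 were higher and 5 lower, against 23.5% higher and 24.2% lower of all genes, with medians of 1.72 for the chemokine set and 0.01 for all genes. The set's median was 1.24 when genes dim on 1 of the 2 arrays were put at their lower bound. Between NSCL61 and NSC, 21 were evaluated, 7 were higher and 4 lower, against 14.4% higher and 14% lower of all genes, with medians of 0.17 for the set and 0.03 for all genes. The comparison of NSCL61 with NSC shares an array with each of the other comparisons, so these counts are not independent. Counted in either direction, 50% of the set evaluated was past 2-fold on NSC-Ceacam1L against NSC (16.5% of all genes), 75% on NSCL61-Ceacam1sh against NSCL61 (47.7%) and 52.4% on NSCL61 against NSC (28.3%).

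Where a gene was seen on the brighter array only, "at least" gives the fold over the higher of its own dim signal and the lowest signal well above background on the dim array. With such genes counted only when this bound reached 2-fold, 3 were higher and 4 lower on NSC-Ceacam1L (8% and 5.79% of all genes), 13 were higher and 5 lower on NSCL61-Ceacam1sh (22% and 22%), and 6 were higher and 1 lower on NSCL61 (12.1% and 13.2%). By class, between the NSCL61 arrays, 11 of 17 ligands evaluated were higher and 2 lower, and 2 of 7 receptors evaluated were higher and 3 lower. The shares of all genes evaluated there were 23.5% higher and 24.2% lower. Among genes seen on both arrays, 7 ligands were higher and 1 lower, and 0 receptors were higher and 2 lower. The share of all genes seen on both arrays was not computed, so these last counts have no background to be judged against. The plot of the 3 differences per gene shows these values, with the higher genes of the middle comparison lying between 1.23 and 6.93.

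**Figure D2:**
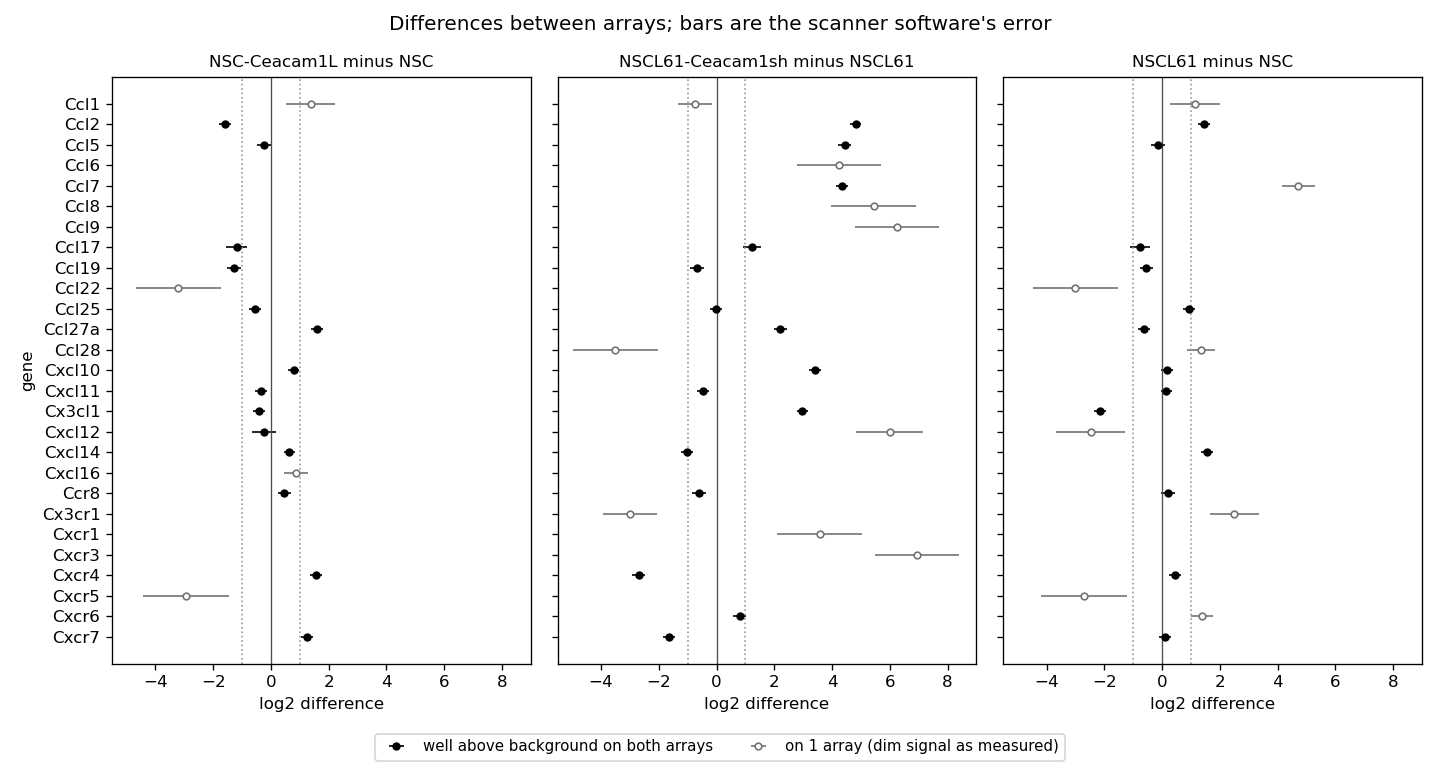
Log2 difference of each gene, by row, in the 3 comparisons, each titled with its 2 arrays; bars are the scanner software's error and dotted lines mark 2-fold. Filled points were well above background on both arrays and open points on 1; in the middle panel 13 genes lie right of the 2-fold line and 5 left of it.

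The CC chemokines encoded on chromosome 11 are inflammatory chemokines that attract monocytes, eosinophils and T cells through receptors that include Ccr1, Ccr2, Ccr3 and Ccr8. Of the 11 on the array in 2 stretches of that chromosome, 7 were evaluated between NSCL61-Ceacam1sh and NSCL61. Of these, 6 were higher and none lower, against 23.5% higher and 24.2% lower of all genes, with a median of 4.43 (4.12 with bounds). Of the 6 higher genes, 3 were seen on both arrays. Ccl6, Ccl8 and Ccl9 were seen on NSCL61-Ceacam1sh and not on NSCL61, so they could only count as higher. Ccl2, a monocyte attractant read by a probe at chr11:81850650-81850709 (mm9, plus strand), stood at -1.26 on NSC-Ceacam1L and 0.33 on NSC, and at 6.58 on NSCL61-Ceacam1sh and 1.77 on NSCL61. It was seen on all 4 arrays and lay lowest on NSC-Ceacam1L and highest on NSCL61-Ceacam1sh. Ccl2 differed by -1.58 ± 0.21 between NSC-Ceacam1L and NSC, by 4.82 ± 0.20 between NSCL61-Ceacam1sh and NSCL61, a 28.2-fold difference, and by 1.44 ± 0.20 between NSCL61 and NSC. Its probe was printed 10 times, and the SD between these spots was 0.04 to 0.10 on the 4 arrays, below each of these differences. The Ccl2 differences stayed past 2-fold under each of the 7 alternative signal treatments tried.

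Ccl7, its neighbour 10 kb away (chr11:81860656-81860715, plus strand) and another monocyte attractant, was not seen on NSC-Ceacam1L (-4.81) or NSC (-4.77) and stood at 4.29 on NSCL61-Ceacam1sh and -0.05 on NSCL61. Both NSCL61 arrays thus lay above both NSC arrays, with the hairpin array on top. The differences were 4.34 ± 0.20 between NSCL61-Ceacam1sh and NSCL61, and at least 18.6-fold between NSCL61 and NSC. Ccl8, a further member of the monocyte chemoattractant family, which acts on Ccr8 in the mouse, was seen on NSCL61-Ceacam1sh alone, at -1.14, against -6.58 on NSCL61 (at least 11.4-fold higher), with -6.60 on NSC-Ceacam1L and -4.61 on NSC. Ccl11 and Ccl12, whose probes lie between those of Ccl7 and Ccl8, were seen on no array.

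The second stretch held Ccl5, a T-cell and monocyte attractant, which was seen on all 4 arrays at -2.77 on NSC-Ceacam1L, -2.52 on NSC, 1.77 on NSCL61-Ceacam1sh and -2.66 on NSCL61. The 3 arrays other than NSCL61-Ceacam1sh lay within 0.25 of each other, and the difference between the NSCL61 arrays was 4.43 ± 0.22 (21.6-fold). Ccl9 and Ccl6, ligands of Ccr1 in the mouse, were seen on NSCL61-Ceacam1sh alone. Ccl9 stood at -0.53 there against -6.78 on NSCL61 (at least 17.4-fold higher), and Ccl6 at -2.46 against -6.70 (at least 4.55-fold higher). On NSC-Ceacam1L and NSC, both had levels of -7.00 to -6.34. Ccl3 and Ccl4, farther along the same stretch, were seen on no array.

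Ccl1, a ligand of Ccr8, was the chromosome 11 gene that did not follow the others on NSCL61-Ceacam1sh. It stood at -4.28 on NSC-Ceacam1L against -5.66 on NSC, where it was not seen, and at -5.26 on NSCL61-Ceacam1sh, where it was not seen, against -4.52 on NSCL61. These levels lay so near the detection limit that no fold could be bounded between NSC-Ceacam1L and NSC or between NSCL61 and NSC, and the bound between the NSCL61 arrays was 1.17-fold. As measured, the differences were 1.38 ± 0.85 and 1.14 ± 0.87, or 0.12 and 0.25 with normexp, and a second Ccl1 probe was seen on no array.

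**Figure D3:**
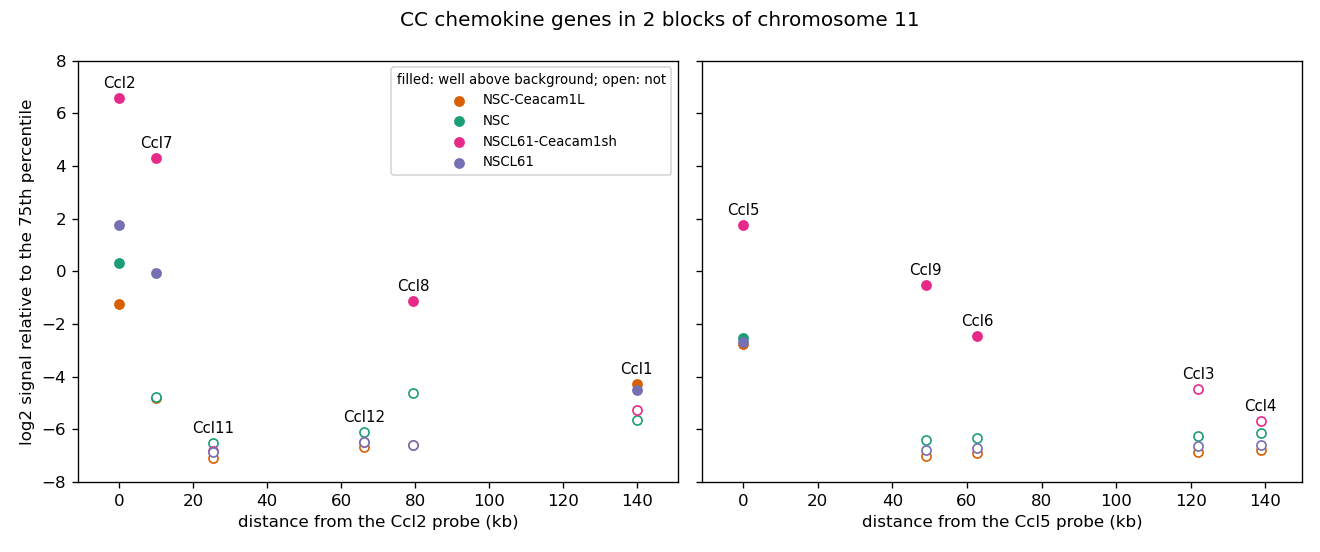
Level of the 11 chromosome 11 CC chemokine genes (log2 signal relative to the 75th percentile) by distance of each probe from the Ccl2 probe (left) and the Ccl5 probe (right), with 1 point per array, filled where well above background. On NSCL61-Ceacam1sh, Ccl2, Ccl7, Ccl8, Ccl5, Ccl9 and Ccl6 lie above the other 3 arrays, and Ccl11, Ccl12, Ccl3 and Ccl4, among and beyond them, were seen on no array.

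Promoter sequences, from 250 bases before to 50 after the gene's start in RefSeq GRCm38.p6, were found by symbol for 38 of the 53 genes. The promoters of Ccl8 and Ccl9 are shown because both genes were seen on NSCL61-Ceacam1sh alone, and they differ in the motifs they hold. Capitals mark motif matches, and positions count from 0 at the first base of the gene. The Ccl8 promoter (chr11:82114935-82115234, plus strand) held a TATAAA at -32 to -27. The Ccl9 promoter (chr11:83578587-83578886, minus strand) held a TATAAA at -92 to -87, a TGANTCA match, the AP-1 consensus, at -53 to -47, and a match to the kappaB consensus, the NF-kB site, on the opposite strand at -35 to -26.
Ccl8: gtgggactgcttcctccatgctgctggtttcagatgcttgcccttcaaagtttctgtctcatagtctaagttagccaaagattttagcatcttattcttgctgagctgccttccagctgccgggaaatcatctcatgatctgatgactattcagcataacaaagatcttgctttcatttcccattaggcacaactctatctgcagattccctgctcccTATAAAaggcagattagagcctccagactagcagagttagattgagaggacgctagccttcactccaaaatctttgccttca
Ccl9: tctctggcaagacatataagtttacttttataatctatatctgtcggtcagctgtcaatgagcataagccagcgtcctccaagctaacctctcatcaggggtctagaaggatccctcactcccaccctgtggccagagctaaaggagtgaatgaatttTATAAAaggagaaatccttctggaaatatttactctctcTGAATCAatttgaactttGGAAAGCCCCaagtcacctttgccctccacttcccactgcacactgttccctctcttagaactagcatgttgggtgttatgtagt

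The other CC chemokines direct lymphocytes to particular tissues, and their differences lay in both directions. Ccl17 and Ccl22 are the ligands of Ccr4, which marks T helper 2 and regulatory T cells. Ccl17 stood at -4.35 on NSC-Ceacam1L and -3.17 on NSC, and at -2.72 on NSCL61-Ceacam1sh and -3.95 on NSCL61, differences of -1.18 ± 0.36 and 1.23 ± 0.31. The 2 Ceacam1 comparisons thus went opposite ways, but with normexp background correction both were under 2-fold, at -0.57 and 0.36, and with spike-in scaling the first was -0.77. Ccl22 was seen on NSC alone, at -3.83, and was at least 2.04-fold lower on NSC-Ceacam1L. It was also at least 1.77-fold lower on NSCL61 than on NSC, and stood at -6.80 on NSCL61-Ceacam1sh; with normexp these differences were -0.87 and -0.57.

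Ccl19, which guides naive T cells and dendritic cells through Ccr7, stood at -3.22 on NSC-Ceacam1L, -1.94 on NSC, -3.16 on NSCL61-Ceacam1sh and -2.49 on NSCL61. NSC was highest of the 4, and the difference between NSC-Ceacam1L and NSC was -1.28 ± 0.24. That difference was under 2-fold with normexp (-0.77), spike-in scaling (-0.86) and the mean of its probes (-0.55), and a second Ccl19 probe seen on all 4 arrays differed by -0.30 ± 0.27 there. Ccl25, the thymus and gut chemokine that binds Ccr9, stood at 1.14 on NSC-Ceacam1L, 1.69 on NSC, 2.62 on NSCL61-Ceacam1sh and 2.63 on NSCL61. By this chosen probe no comparison was past 2-fold, the nearest being NSCL61 minus NSC at 0.94 ± 0.20. Ccl25 had 2 further probes seen on all arrays, which differed by 0.14 ± 0.35 and -0.67 ± 0.21 between NSCL61 and NSC. Between NSCL61-Ceacam1sh and NSCL61 they differed by 1.20 ± 0.27 and 1.21 ± 0.21, where the chosen probe differed by -0.01 ± 0.20.

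Ccl27a, a ligand of Ccr10 in skin, was the gene past 2-fold in the same direction in both Ceacam1 comparisons. It stood at 0.28 on NSC-Ceacam1L and -1.31 on NSC (1.59 ± 0.21), and at 0.28 on NSCL61-Ceacam1sh and -1.93 on NSCL61 (2.21 ± 0.21). The chosen probe also lists Ccl27b, Gm13306 and Gm2506, near-identical copies whose transcripts it cannot tell apart, and a second probe that lists several of them differed by 1.47 ± 0.21 and 2.13 ± 0.22. The remaining probe, which lists Ccl27a alone, was higher on NSC-Ceacam1L than on NSC by 1.94 ± 0.34. That probe stood at -0.62 on NSCL61-Ceacam1sh and -6.74 on NSCL61, where it was not seen. Ccl28, a mucosal ligand of the same receptor, was seen on NSCL61 alone, at -3.04, at least 3.26-fold lower on NSCL61-Ceacam1sh (-6.54) and at least 2.34-fold higher on NSCL61 than on NSC (-4.39). Ccl28 stood at -6.75 on NSC-Ceacam1L, and with normexp its differences were under 2-fold, at -0.93 between the NSCL61 arrays and 0.40 between NSCL61 and NSC.

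Cxcl9, Cxcl10 and Cxcl11 are the interferon-inducible ligands of Cxcr3, a receptor of activated T cells. Cxcl10 stood at 1.28 on NSC-Ceacam1L and 0.50 on NSC, and at 4.08 on NSCL61-Ceacam1sh and 0.67 on NSCL61. The first pair differed by 0.78 ± 0.20, under 2-fold, and the NSCL61 pair by 3.41 ± 0.20. A second Cxcl10 probe was seen on NSCL61-Ceacam1sh alone. Cxcl11 was within 2-fold in each comparison, at 8.19 on NSC-Ceacam1L, 8.54 on NSC, 8.22 on NSCL61-Ceacam1sh and 8.69 on NSCL61. Its second probe, seen on all 4 arrays, stood far lower, at 1.97 on NSC-Ceacam1L, 2.93 on NSC, 3.38 on NSCL61-Ceacam1sh and 2.89 on NSCL61. Levels were compared between arrays and not between probes, so they do not rank Cxcl11 against other genes. The second probe differed by -0.95 ± 0.20 between NSC-Ceacam1L and NSC, against -0.35 ± 0.20 for the chosen one. Between the NSCL61 arrays the second probe went the other way, by 0.49 ± 0.20 against -0.47 ± 0.20. Cxcl9 was seen on no array.

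Cxcl1, Cxcl2, Cxcl3, Cxcl5 and Cxcl15, the chemokines that attract neutrophils through Cxcr2, were seen on no array, and neither was Cxcr2. The promoters of Cxcl10 and Cxcl1 are shown side by side because both hold kappaB matches while the first gene was seen on all 4 arrays and the second on none. The Cxcl10 promoter (chr5:92348840-92349139, minus strand) held kappaB matches at -159 to -150 and -103 to -94, a pair of GAAA with 2 bases between, the interferon response element, at -213 to -204, and a TGANTCA match at -74 to -68. The Cxcl1 promoter (chr5:90890995-90891294, plus strand) held overlapping kappaB matches on the 2 strands at -71 to -61 and an ACGTG, the core of the hypoxia response element, on the opposite strand at -196 to -192. Overlapping kappaB matches on both strands were also found in the promoters of Cxcl2 and Cxcl3.
Cxcl10: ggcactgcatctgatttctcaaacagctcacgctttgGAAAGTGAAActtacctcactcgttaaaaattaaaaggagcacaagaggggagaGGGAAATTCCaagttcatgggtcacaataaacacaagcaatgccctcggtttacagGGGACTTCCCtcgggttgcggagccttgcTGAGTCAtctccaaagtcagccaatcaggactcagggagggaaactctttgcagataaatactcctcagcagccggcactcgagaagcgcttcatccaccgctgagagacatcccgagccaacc
Cxcl1: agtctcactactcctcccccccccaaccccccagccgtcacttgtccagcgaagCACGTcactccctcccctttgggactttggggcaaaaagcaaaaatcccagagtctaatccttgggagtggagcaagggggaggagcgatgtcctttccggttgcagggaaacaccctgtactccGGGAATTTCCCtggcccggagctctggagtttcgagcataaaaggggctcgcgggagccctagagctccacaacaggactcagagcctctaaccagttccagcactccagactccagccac

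Over 32851 promoters of the same length, searched on both strands, the kappaB consensus was found in 4.51%, the GAAA pair in 3.44%, TGANTCA in 7.81%, ACGTG in 19.6% and TTCNNNGAA, the STAT site, in 8.30%. TATAAA, searched on the gene's strand, was found in 8.32%. Of the 38 chemokine and receptor genes with a promoter sequence, 9 held the kappaB consensus, 3 the GAAA pair, 8 TGANTCA, 5 ACGTG, 4 TTCNNNGAA and 11 TATAAA. The percentages are per promoter, while a gene counted when any of its promoters held a match, and Ccl25, Ccl27a and Ccr6 had several. Of the 9 genes with a kappaB match, Ccl9, Ccl27a and Cxcl10 were seen on an array and Ccl20, Ccr3, Ccr6, Cxcl1, Cxcl2 and Cxcl3 on none. A match describes the letters of the window only.

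The remaining ligands seen on an array were Cxcl12, Cx3cl1, Cxcl14 and Cxcl16. Cxcl12, the ligand of Cxcr4 and Cxcr7, stood at -4.03 on NSC-Ceacam1L and -3.79 on NSC, and at -0.27 on NSCL61-Ceacam1sh and -6.26 on NSCL61, where it was not seen. It was at least 20.8-fold higher on NSCL61-Ceacam1sh than on NSCL61, and at least 1.81-fold lower on NSCL61 than on NSC, a difference of -2.47 as measured and -0.42 with normexp. Its second probe was seen on NSCL61-Ceacam1sh alone. Cxcl12 is also made by fibroblasts, and of 6 fibroblast and mesenchyme markers seen on either NSCL61 array, Col1a1 (4.48 ± 0.35), Col1a2 (5.14 ± 0.23), Col3a1 (5.25 ± 0.29), Dcn (at least 248-fold) and Pdgfrb (at least 82.0-fold) were higher there. The sixth, Thy1, was lower on NSCL61-Ceacam1sh than on NSCL61, and Lum was seen on no array. The part of these markers in the Cxcl12 difference was not tested.

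Cx3cl1 (chr8:97306185-97306244, mm9, plus strand) stood at 3.27 on NSC-Ceacam1L and 3.67 on NSC, and at 4.51 on NSCL61-Ceacam1sh and 1.53 on NSCL61. NSCL61 was the low array: the difference from NSC was -2.14 ± 0.20, and NSCL61-Ceacam1sh was higher than NSCL61 by 2.98 ± 0.20. Cxcl14, a chemokine of epithelium and brain, stood at 0.34 on NSC-Ceacam1L and -0.31 on NSC, and at 0.25 on NSCL61-Ceacam1sh and 1.26 on NSCL61. NSCL61 was the high array, by 1.56 ± 0.21 over NSC, and the difference between NSCL61-Ceacam1sh and NSCL61 was -1.01 ± 0.20. That last difference lay at the 2-fold line and was -0.90 with normexp, -0.59 with median scaling, -0.55 with spike-in scaling and -0.97 in the authors' deposited table. Cxcl16, a transmembrane ligand of Cxcr6, was seen on NSC-Ceacam1L alone, at -3.33 against -4.20 on NSC, with -5.80 on NSCL61-Ceacam1sh and -6.63 on NSCL61.

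Among the receptors, Cxcr4 and Cxcr7 took the same order over the 4 arrays. Cxcr7, now named Ackr3, is an atypical receptor that binds Cxcl12 and Cxcl11 and removes them from the medium. Cxcr4 (chr1:130485079-130485138, mm9, minus strand) stood at 0.73 on NSC-Ceacam1L and -0.81 on NSC, and at -3.07 on NSCL61-Ceacam1sh and -0.37 on NSCL61. Cxcr7 (chr1:92111803-92111862, mm9, plus strand) stood at 2.39 on NSC-Ceacam1L and 1.14 on NSC, and at -0.39 on NSCL61-Ceacam1sh and 1.25 on NSCL61. For both genes NSC-Ceacam1L was the highest array, NSCL61-Ceacam1sh the lowest, and NSC and NSCL61 lay between. Cxcr4 differed by 1.55 ± 0.21 between NSC-Ceacam1L and NSC and by -2.70 ± 0.24 between NSCL61-Ceacam1sh and NSCL61. The Cxcr7 differences were 1.24 ± 0.20 and -1.65 ± 0.21. These 4 differences stayed past 2-fold under each of the 7 alternative signal treatments. NSCL61 and NSC differed by 0.44 ± 0.21 in Cxcr4 and 0.11 ± 0.20 in Cxcr7. The promoters of the pair are shown because of that shared order. The motif found in either was TATAAA, at -30 to -25 in Cxcr4 (chr1:128592250-128592549, minus strand) and at -8 to -3 in Cxcr7 (chr1:90203730-90204029, plus strand).
Cxcr4: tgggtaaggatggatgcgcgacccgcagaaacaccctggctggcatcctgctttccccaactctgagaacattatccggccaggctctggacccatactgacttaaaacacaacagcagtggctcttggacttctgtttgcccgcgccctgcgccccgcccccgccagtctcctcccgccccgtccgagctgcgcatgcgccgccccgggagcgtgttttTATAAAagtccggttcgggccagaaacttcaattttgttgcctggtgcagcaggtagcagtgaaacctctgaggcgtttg
Cxcr7: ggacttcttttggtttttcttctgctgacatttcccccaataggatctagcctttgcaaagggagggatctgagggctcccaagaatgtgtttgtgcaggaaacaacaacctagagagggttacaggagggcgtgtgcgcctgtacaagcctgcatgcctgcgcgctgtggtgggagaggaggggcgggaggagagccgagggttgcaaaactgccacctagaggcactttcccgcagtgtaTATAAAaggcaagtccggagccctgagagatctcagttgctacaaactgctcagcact

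Cxcr3 (chrX:98926920-98926979, mm9, minus strand) was seen on NSCL61-Ceacam1sh alone, at 0.26, against -6.67 on NSCL61, -5.47 on NSC-Ceacam1L and -6.32 on NSC. It was at least 30-fold higher than on NSCL61. Cxcr1, a receptor of neutrophils, was likewise seen on NSCL61-Ceacam1sh alone, at -3.40 against -6.97 on NSCL61 (at least 2.37-fold higher), with -7.16 on NSC-Ceacam1L and -6.59 on NSC. Ccl6, Ccl8, Ccl9, Cxcl12, Cxcr1 and Cxcr3, the 6 genes seen on NSCL61-Ceacam1sh and not on NSCL61, had differences of 0.57 to 2.96 with normexp background correction, under 2-fold for Cxcr1 (0.57) and Ccl6 (0.87), against 3.57 to 6.93 here.

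By its chosen probe, Cxcr6, the receptor of Cxcl16, was seen on both NSCL61 arrays and on neither NSC array. Its levels were -1.72 on NSCL61-Ceacam1sh, -2.52 on NSCL61, -4.70 on NSC-Ceacam1L and -3.90 on NSC. By that probe NSCL61 was at least 2.61-fold higher than NSC (0.52 on the log2 scale with normexp). The NSCL61 pair differed there by 0.80 ± 0.23. That difference was past 2-fold (1.07 to 1.26) under quantile, cyclic loess, median and spike-in scaling and with the mean of the Cxcr6 probes. The second Cxcr6 probe was seen on both NSCL61 arrays and also on NSC-Ceacam1L (-4.36), but not on NSC (-4.69). It differed by 0.91 ± 0.61 between NSCL61 and NSC, under 2-fold, and by 1.34 ± 0.31 between NSCL61-Ceacam1sh and NSCL61. Cx3cr1, the fractalkine receptor of microglia, was seen on NSCL61 alone, at -2.83 against -5.33 on NSC (at least 2.71-fold higher), and was at least 3.78-fold lower on NSCL61-Ceacam1sh (-5.82). With normexp these Cx3cr1 differences were 0.69 and -0.97, and its other probe was seen on no array. Cxcr5, the B-cell receptor for Cxcl13, was seen on NSC alone, at -4.12, at least 1.67-fold lower on NSC-Ceacam1L (-7.05) and at least 1.45-fold lower on NSCL61 (-6.83), and stood at -6.78 on NSCL61-Ceacam1sh; with normexp these differences were -0.97 and -0.57.

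Ccr8 was the one CC receptor of 11 that was seen. It stood at -1.83 on NSC-Ceacam1L, -2.30 on NSC, -2.69 on NSCL61-Ceacam1sh and -2.10 on NSCL61, with no difference past 2-fold (0.47 ± 0.23, -0.60 ± 0.24 and 0.21 ± 0.24). Its 2 probes did not give the same picture: the second, at chr9:120003293-120003352 (mm9, plus strand), was seen on no array, at -6.70 to -6.14. That probe is shown because it lies in the coding part of the gene, with capitals on the codons of the DRYLAIV motif at the inner end of the third transmembrane helix of chemokine receptors.
Ccr8 probe: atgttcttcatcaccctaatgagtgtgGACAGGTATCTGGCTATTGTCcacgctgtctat

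Ligands and receptors were then set side by side. Ccr2, the receptor of Ccl2 and Ccl7, and Ccr1 and Ccr3, receptors of Ccl5, were seen on no array. The same held for Ccr4 (Ccl17 and Ccl22), Ccr7 (Ccl19), Ccr9 (Ccl25) and Ccr10 (Ccl27a and Ccl28). On NSCL61-Ceacam1sh against NSCL61, Cxcl12 was at least 20.8-fold higher while its receptors Cxcr4 (-2.70) and Cxcr7 (-1.65) were lower. There Cxcl10 (3.41) and its receptor Cxcr3 were both higher. Cx3cl1 and Cx3cr1 lay opposite each other in 2 comparisons, which share the NSCL61 array. Cx3cl1 was higher and Cx3cr1 lower on NSCL61-Ceacam1sh than on NSCL61, and Cx3cl1 was lower and Cx3cr1 higher on NSCL61 than on NSC. The Cx3cr1 side rested on 1 probe seen on NSCL61 alone. With normexp its differences were under 2-fold (-0.97 and 0.69), and the other Cx3cr1 probe was seen on no array.

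The series was designed to look for genes that follow Ceacam1 in both cell types, so the 2 Ceacam1 comparisons, which share no array, were set side by side. Of the 15 chemokine and receptor genes evaluated in both, 4 were past 2-fold in opposite directions, against 6.5% of all genes evaluated in both, and 1 in the same direction, against 3.27%. Ccl2 and Ccl17 were lower on NSC-Ceacam1L and higher on NSCL61-Ceacam1sh, and Cxcr4 and Cxcr7 were higher on NSC-Ceacam1L and lower on NSCL61-Ceacam1sh. Ccl27a was higher in both. The plot of one difference against the other shows that Ccl5, Cxcl10, Cxcl12 and Cx3cl1 (higher) and Cxcl14 (lower) were past 2-fold between the NSCL61 arrays and not between the NSC arrays, and Ccl1 and Ccl19 between the NSC arrays and not between the NSCL61 arrays.

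**Figure D4:**
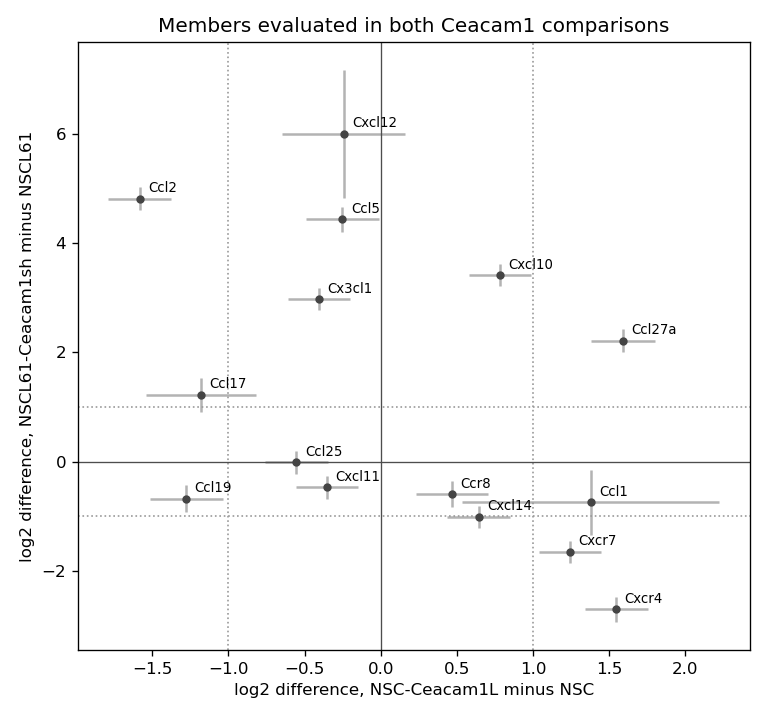
Log2 difference between NSC-Ceacam1L and NSC (horizontal) and between NSCL61-Ceacam1sh and NSCL61 (vertical) for the 15 genes evaluated in both, with the scanner software's error as bars and 2-fold as dotted lines. Cxcr4 and Cxcr7 lie at lower right, Ccl2 and Ccl17 at upper left and Ccl27a at upper right.

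Genes around the chemokine system were read from lists that had been chosen with earlier results of these data known. Of the 32 genes of NF-kB and inflammatory signalling, which drive many chemokine genes, 26 were evaluated between NSCL61-Ceacam1sh and NSCL61. Of these, 20 were higher and 2 lower, against 23.5% higher and 24.2% lower of all genes, with a median of 3.1. Among the higher genes, Il1rl1, Ptgs2, Il6, Birc3, Tnfrsf1b, Csf2 and Csf3 were not seen on NSCL61, so they could only count as higher. With genes dim on NSCL61 placed by their lower bound, the 8 largest differences were all higher: Il1rl1, the receptor of Il33, by at least 3786-fold, Ptgs2, the inducible prostaglandin synthase, by at least 1403-fold, the cytokine Il6 by at least 126-fold, the NF-kB co-activator Bcl3 by 5.20 ± 0.24, the cytokine Il11 by 4.99 ± 0.21, the Toll-like receptors Tlr2 and Tlr4 by 4.61 ± 0.30 and 4.07 ± 0.39, and the alarmin Il33 by 4.29 ± 0.21. Of the NF-kB subunit genes, named for their role, Nfkb1 (2.59 ± 0.21), Nfkb2 (2.30 ± 0.20) and Relb (1.53 ± 0.20) were higher, Rela (-0.11 ± 0.20) was within 2-fold and Rel was not seen. The chemokine-inducing cytokines Tnf, Il1a and Il1b were seen on no array. Between NSC-Ceacam1L and NSC, 5 of 18 genes of that list were higher and 1 lower (10.5% and 6.04% of all genes), led by Il1r1, the interleukin-1 receptor (at least 5.98-fold), and Ptgs2 (at least 5.03-fold), with Tnfaip3, a feedback inhibitor of NF-kB, the lower one (-1.32 ± 0.22). Between NSCL61 and NSC, 8 of 19 were higher and none lower (14.4% and 14% of all genes), among them the cytokine Lif, which stood at -0.85 on NSCL61 and was not seen on NSC, Il11 (at least 9.7-fold) and Il1r1 (at least 7.04-fold).

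Of the interferon list, 10 of 18 genes were higher on NSC-Ceacam1L than on NSC and none lower (10.5% and 6.04% of all genes), with a median of 1.28, led by the interferon-induced genes Igtp (2.49 ± 0.22), Ifit3 (2.36 ± 0.22) and Oasl2 (2.25 ± 0.22). On NSCL61-Ceacam1sh, 5 of 17 were higher than on NSCL61 and 4 lower (23.5% and 24.2% of all genes), led by Isg15 (3.75 ± 0.20), the transcription factor Irf7 (3.61 ± 0.27), the GTPase gene Gbp2 (-3.19 ± 0.21) and the factor Irf8 (at least 7.71-fold lower). Between NSCL61 and NSC, 6 of 17 were higher and 1 lower (14.4% and 14% of all genes). Among 20 genes that act below the receptors, 2 of 14 were higher and none lower on NSC-Ceacam1L against NSC (10.5% and 6.04% of all genes), 6 of 16 were higher and 3 lower on NSCL61-Ceacam1sh against NSCL61 (23.5% and 24.2%), and 2 of 15 were higher and 1 lower on NSCL61 against NSC (14.4% and 14%). The G-protein subunit gene Gng2 was at least 131-fold higher on NSCL61-Ceacam1sh (2.44) than on NSCL61 (-4.59), where it was not seen, and the kinase gene Prkcd at least 30.1-fold, while Arrb1, the arrestin that uncouples the receptors, was lower (-2.65 ± 0.20). Gng2 was also at least 73.9-fold lower on NSCL61 than on NSC. Rgs16, a G-protein inhibitor, was higher in all 3 comparisons (1.73 ± 0.21, 1.55 ± 0.20 and 2.92 ± 0.21).

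Of 10 genes for proteins that cut or bind chemokines, 1 of 7 was higher and 1 lower on NSC-Ceacam1L against NSC (10.5% and 6.04% of all genes), 3 of 8 were higher and 1 lower on NSCL61-Ceacam1sh against NSCL61 (23.5% and 24.2%), and 2 of 7 were higher and 2 lower on NSCL61 against NSC (14.4% and 14%). The metalloprotease Mmp3 was at least 1691-fold higher and Mmp2 higher by 4.0 ± 0.29 on NSCL61-Ceacam1sh than on NSCL61, and Tnfaip6, which binds chemokines, was lower (-1.99 ± 0.21). The sheddases of Cx3cl1 and Cxcl16, Adam10 (-0.77 ± 0.20) and Adam17 (-0.06 ± 0.22), were within 2-fold. Of 13 chemokine-related genes that the naming rule leaves out, 2 of 7 were higher and 1 lower on NSC-Ceacam1L against NSC, 1 of 4 was higher and 1 lower on NSCL61-Ceacam1sh against NSCL61, and 2 of 4 were higher and none lower on NSCL61 against NSC; the shares of all genes are those just given. Rarres2, the precursor of chemerin, was at least 12.9-fold lower on NSCL61-Ceacam1sh than on NSCL61 and higher on NSCL61 than on NSC (1.12 ± 0.22). Cd44, a hyaluronan receptor that presents chemokines, was higher in both of these comparisons (1.13 ± 0.20 and 3.03 ± 0.20). Mif, an alternative ligand of Cxcr4, was lower on NSC-Ceacam1L than on NSC (-1.24 ± 0.20). The atypical receptors Ackr1 and Ackr4 were seen on NSC-Ceacam1L alone, Ackr1 at least 2.15-fold above NSC.

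Chemokines and their receptors are made at high levels by blood and brain immune cells, so the markers of such cells were read on the same arrays. Of 6 leukocyte markers, 2 were seen on NSC-Ceacam1L, 2 on NSC, 3 on NSCL61-Ceacam1sh and 2 on NSCL61, with summed signals of 25.9, 19.7, 11 and 25.0 times the 75th percentile. The defining markers Ptprc and Itgax were seen on no array, while Itgam (3.23 to 4.58) and Cd3e (0.23 to 1.12) were seen on all 4. On NSCL61-Ceacam1sh against NSCL61, Ly6g was at least 8.75-fold higher and Itgam lower (-1.27 ± 0.20). Of 10 microglia and macrophage markers, 3 were seen on NSC-Ceacam1L, 3 on NSC, 5 on NSCL61-Ceacam1sh and 5 on NSCL61, with summed signals of 3.14, 4.24, 6.24 and 5.80. Aif1, Tyrobp, C1qa and P2ry12 were seen on no array, while Csf1r (1.33 to 1.91), Cd68 (-1.58 to 0.78) and Fcer1g (-3.10 to -2.49) were seen on all 4. On NSCL61-Ceacam1sh against NSCL61, Tmem119 (5.19 ± 0.29) and Trem2 (at least 1.82-fold) were higher and Cd68 was lower (-1.26 ± 0.21), and Cd68 was higher on NSCL61 than on NSC (1.93 ± 0.21). Of 5 endothelial markers, 2 were seen on NSC-Ceacam1L, 2 on NSC, 2 on NSCL61-Ceacam1sh and 3 on NSCL61.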

How the data were processed

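Total RNA was labelled with Cy3 and measured on 1 single-colour Agilent mouse array per group, with groups taken from the sample titles. The deposited intensity values, background-subtracted and detrended signals of each spot, came from Feature Extraction 10.7.3.1 with protocol GE1_107_Sep09, per the file headers; the submitters' processing notes give version 9.1 of that program. Probe positions are on mm9. The deposited table holds log2 values by the authors. Its differences between arrays had slopes of 1.00 against the scanner signals and offsets of -0.22, -0.27 and 0.14, so scale and direction were settled; the centring stayed unknown (column medians -0.20, 0.25, 0.03 and 0.00 for NSC-Ceacam1L, NSC, NSCL61-Ceacam1sh and NSCL61), and it was used as an alternative.

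Of 62976 spots, 59305 were not controls. After outlier spots were removed, signals were scaled to the 75th percentile of the array over these spots (571, 480.0, 541 and 439, same order), put on a log2 scale and averaged per probe. The probes well above background numbered 29552, 27439, 27421 and 29336; having 4 arrays limits the precision. Outside the set, probes were named by accession (27325), symbol (3523) or older symbol (551) through RefSeq, and 24282 stayed unnamed. Of several probes of a gene, the brightest was used, which concerned 12 members. The calling step was checked on simulated data. Every member seen on an array was named, and from the gene lists at most 8 genes past 2-fold per comparison, in order of size (dim genes at their lower bound), apart from members of a list named for their role or as not seen, which were chosen after their values were seen. Members and lists were chosen with earlier results of these data known. Tools were R 4.3.3 with limma 3.58.1 and Python 3.11.15 with numpy 2.4.6 and pandas 2.3.3. Alternatives were normexp background correction (offset 50), quantile, cyclic loess, median and spike-in scaling, the deposited table, the mean of all probes, other filters on dim probes, and 1.5-fold and 4-fold thresholds.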

Additional observations from a re-analysis of the deposited data

How the results depend on the processing

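With 1 array per group, no array could be left out and no spread between replicates was measured. No paired analysis was possible because each group had 1 array and the labels give no replicate numbers. Of the genes past 2-fold, 4 of 9 between NSC-Ceacam1L and NSC (Ccl2, Ccl27a, Cxcr4 and Cxcr7), 12 of 18 between NSCL61-Ceacam1sh and NSCL61 and 4 of 11 between NSCL61 and NSC (Ccl2, Ccl7, Cx3cl1 and Cxcl14) remained so under all 7 alternative signal treatments, and no single gene past 2-fold changed direction. Normexp, whose offset draws differences of dim signals toward 0, left 4, 12 and 4 genes past 2-fold in these comparisons. Without the filter on dim probes the first count was 15 (6 higher, 9 lower), with the filter on both arrays the second was 10 (7 higher, 3 lower) and the third 3, and at 4-fold the first was 2 and the third 6. Spike-in scaling gave 7 higher and 3 lower on NSC-Ceacam1L, against 4 and 5, with Cxcl10, Cxcl14 and Cxcl16 joining the higher genes and Ccl17 and Ccl19 leaving the lower ones. The set's median between NSC-Ceacam1L and NSC, -0.25, was -0.022 with quantile normalization, 0.0683 with cyclic loess and 0.17 with spike-in scaling, so its sign was not settled, and -0.57 without the filter. The median of all genes in that comparison was 0.13 with cyclic loess and 0.31 with spike-in scaling, against -0.10. Between NSCL61-Ceacam1sh and NSCL61 the set's median, 1.72, was 0.49 with normexp, 2.14 with median scaling, 2.18 with spike-in scaling, 2.10 with the mean of all probes, 0.80 with the filter on both arrays and 0.0455 without a filter, which adds genes seen on neither array. All genes moved by 0.43 and 0.47 with median and spike-in scaling there. Between NSCL61 and NSC the set's median, 0.17, was -0.0546 with spike-in scaling, where the median of all genes was -0.19, and -0.36 without the filter. The cause of these changes was not tested beyond the construction of each setting. Signals near background limit the reading of Ccl1, Ccl22, Ccl28, Cxcl16, Cxcr1, Cxcr5 and Cx3cr1.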
